A study of Mus musculus with 10 samples.

Results

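The genes described here are the cadherins and protocadherins of the mouse, taken as every gene whose symbol in the deposited transcript names is Cdh followed by a number, begins with Pcdh, or is a numbered Fat, Celsr or Dchs, and which has a protein-coding transcript. They number 102 of the 45706 genes in the tables and carry 99 different symbols. The set holds 23 Cdh genes, 12 protocadherin genes that lie outside the gene clusters, 4 Fat, 3 Celsr and 2 Dchs genes, and the clustered protocadherins with 15 alpha (Pcdha), 22 beta (Pcdhb) and 21 gamma (Pcdhg) genes. One further name match, Pcdhgb8, had no protein-coding transcript and was left out.

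Cadherins are membrane proteins that hold cells together through calcium-dependent repeats outside the cell, and classical cadherins bind catenins inside it, which link them to actin. Mesenchymal cells such as fibroblasts typically carry Cdh2 and Cdh11, whereas epithelial cells and pluripotent stem cells carry Cdh1 (E-cadherin), and the change from one type to the other accompanies the mesenchymal-to-epithelial transition of reprogramming. Fat, Dchs and Celsr proteins are very large cadherins that orient cells within a sheet (planar polarity), and the clustered protocadherins are known for giving single neurons their own surface identity.

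Gene expression was measured by poly(A) RNA sequencing at 5 stages with 2 libraries each. MEF are uninduced embryonic fibroblasts of a C57BL/6 x 129 background that carry a doxycycline-inducible OKSM cassette (Oct4, Klf4, Sox2 and Myc) in the Col1a1 locus and the M2rtTA transactivator in the ROSA26 locus, kept in fibroblast medium without the drug and not sorted. D3, D6 and D9 are cells of that genotype after 3, 6 and 9 days in embryonic stem cell medium with doxycycline at 1 µg/ml and ascorbic acid at 50 µg/ml. D3 cells were not sorted, whereas D6 and D9 cells were sorted for the SSEA1 surface antigen, so D6 and D9 describe the SSEA1-positive cells and not the whole culture. ESC is the V6.5 embryonic stem cell line, also C57BL/6 x 129, with no cassette in its label, grown on irradiated feeder cells in stem cell medium and not sorted. D3 against MEF therefore combines factor induction, ascorbic acid and a change of medium, and D6 against D3 combines time with sorting. The series text calls replicates biological, but the labels do not say which embryo or culture each came from.

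Libraries held 29585876 to 38275024 estimated reads, and the share of reads on the 102 genes was 0.330% to 0.333% in MEF, 0.163% to 0.173% at D3 and 0.109% to 0.130% in the D6, D9 and ESC libraries. Levels are given as CPM, read counts divided by TMM-scaled library size, in which a single read is worth 0.0253 to 0.0369 CPM. The stage labels were checked against marker genes. The summed level of 13 fibroblast markers was 55920 CPM in MEF, 4533 at D3, 271 at D6, 118 at D9 and 5013 in ESC, and that of 10 pluripotency markers was 2.32, 6.64, 159, 427 and 4407 CPM in the same order. Sex-linked genes separated the libraries in another way: Xist, expressed from the inactive X chromosome, averaged 0.766 CPM in MEF, 1010 at D3, 1300 at D6, 1080 at D9 and 10.2 in ESC, whereas Y-linked Ddx3y averaged 88.5 CPM in MEF and 26.5 in ESC and at most 0.164 in the induced groups. MEF and induced libraries thus differed in sex-linked RNA as well as in stage, and the parts of donor and stage in any comparison with MEF cannot be told apart. The same holds for ESC against D9, where Xist and Ddx3y also differed. In RNA from whole populations, fewer cells of a type and less RNA per cell cannot be told apart either.

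Of the 102 genes, 85 passed the filter on low counts, 28 stayed under 1 CPM in all 10 libraries and 2 had no read in any library. A call required an adjusted p under 0.05 (Benjamini-Hochberg, over the 20165 genes that edgeR tested by quasi-likelihood) and a change of at least 2-fold, and log2 fold changes are given with their standard error (SE). At D3, 7 members were called higher and 58 lower than in MEF, or 76.5% of those tested. Of all tested genes 29.1% were called, 14.6% higher and 14.5% lower. At D6 against D3 the counts were 12 higher and 26 lower (44.7%, against 19.5% of all tested genes, 9.26% higher and 10.2% lower), and at D9 against D6 they were 7 higher and 16 lower (27.1%, against 7.87%, 5.18% higher and 2.68% lower). ESC against D9 gave 28 higher and 12 lower (47.1%, against 32.9%, 18.6% higher and 14.3% lower). Against MEF, D9 gave 11 higher and 66 lower (90.6%, against 43.9%, 24.1% higher and 19.8% lower) and ESC 8 higher and 63 lower (83.5%, against 46.1%, 25.5% higher and 20.6% lower). These 2 comparisons and D3 against MEF share the MEF libraries. The median log2 fold change over the 85 members was -1.63 at D3 against MEF, -0.78 at D6 against D3, -0.48 at D9 against D6 and 0.31 in ESC against D9, where the medians of all tested genes were 0.08, 0.03, 0.00 and 0.005. Scaling by library size without TMM moved the median of all genes to 0.29 at D3, 0.48 at D9 and 0.44 in ESC, each against MEF.

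Followed step by step from MEF to D9, 56 of the 85 tested members fell at 1 or more of the 3 steps and rose at none. Another 7 rose at 1 or more steps and fell at none: Cdh1, Celsr1, Celsr2, Fat2, Pcdh1 and Pcdh17 outside the clusters, and Pcdha3. Both directions occurred in 14 members and no call in 8. Of the 56 that only fell, 24 were higher in ESC than at D9 and 4 were lower. The shares of all tested genes with these patterns were not computed, so these counts describe the members only.

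Length-corrected values (TPM, the deposited abundance scaled by transcript length) show which members dominated at each stage. In MEF, Cdh11 led with 171 ± 1.75 TPM (SD, n = 2), 35.5% of the summed TPM of the 102 genes, followed by Fat1 with 88.1 ± 11.1 TPM and Pcdh19 with 45.8 ± 0.421 TPM. At D3 and D6 Fat1 led with 43.0% and 45.9% of the sum, and Cdh13 held 11.6% and 7.66%. Cdh1 reached 8.93 ± 0.187 TPM (6.43%) at D6 and 43.2 ± 1.06 TPM (28.6%) at D9, when Fat1 was at 56.9 ± 7.94 TPM (37.8%). In ESC Cdh1 was first with 42.2 ± 0.839 TPM (30.9%), ahead of Fat1 with 31.3 ± 0.132 TPM (22.9%) and Cdh11 with 10.8 ± 0.470 TPM (7.87%). The leading gene thus changed from Cdh11 to Fat1 and then to Cdh1. The Fat1 values depend on how its reads were divided between transcripts, since 29.8% to 39.9% of them by group were assigned to a transcript of 4770 bases beside forms of 14627 and 14814 bases.

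**Figure D1:**
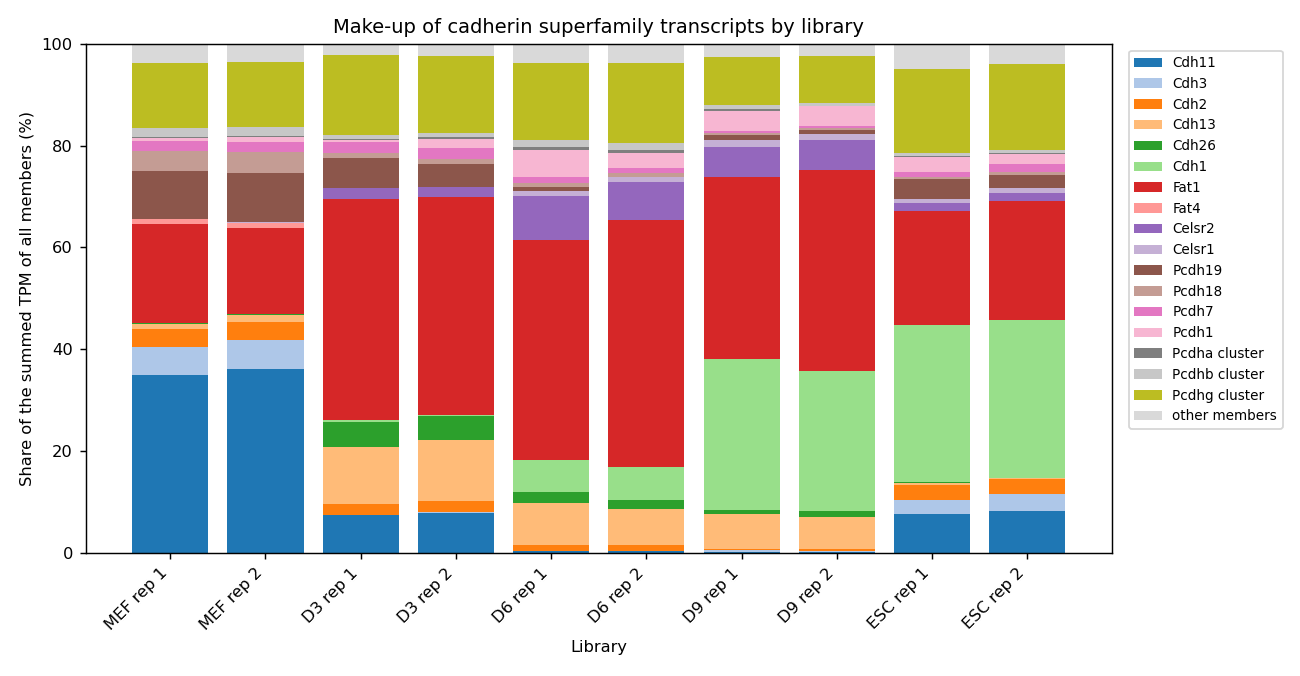
Share of the summed TPM of the 102 cadherin superfamily genes (vertical axis, %) held by single genes and by the 3 protocadherin clusters in each of the 10 libraries (horizontal axis). Cdh11 holds 35.5% on average in MEF and Cdh1 holds 28.6% at D9 and 30.9% in ESC.

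Outside the clusters, 18 of the 44 members averaged at least 10 CPM in some group. In MEF 10 of these were highest, 3 at D3, 1 at D6, 3 at D9 and 1 in ESC. The number at or above that level was 12 in MEF, 10 at D3, 9 at D6, 6 at D9 and 10 in ESC.

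**Figure D2:**
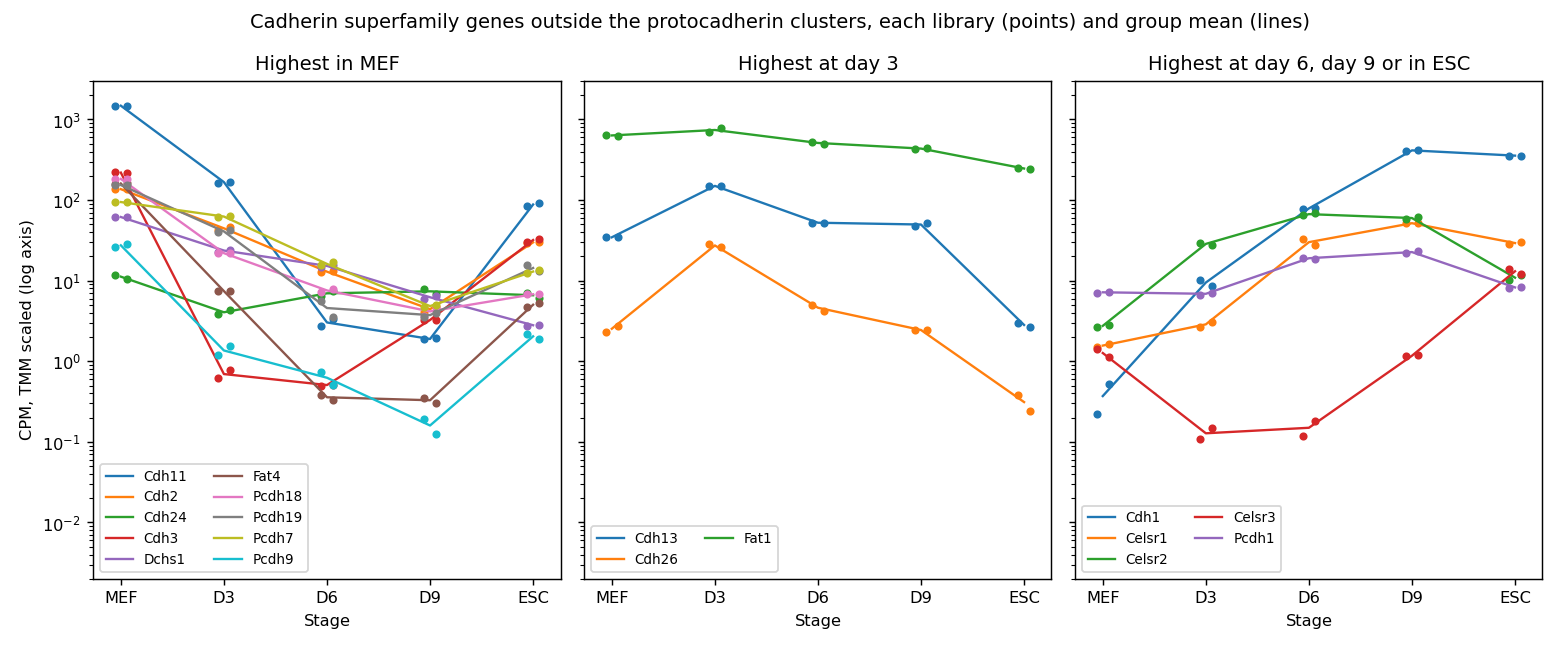
CPM (log axis) of the 18 members outside the clusters that reach 10 CPM, by stage, with points for libraries, lines through group means and a panel for the stage at which each gene is highest. Cdh11 falls from 1482 CPM in MEF to 1.89 at D9 on average, while Cdh1 climbs from 0.37 to 414.

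Among the classical cadherins, Cdh1, the adhesion molecule of epithelia, rose at every step to D9. It stood at 0.222 and 0.518 CPM in the MEF libraries (6 and 17 reads), 10.3 and 8.69 at D3, 77.4 and 80.2 at D6, 405 and 423 at D9, and 357 and 355 in ESC. The libraries of neighbouring stages did not overlap. The log2 fold change was 4.62 (SE 0.20, adjusted p = 4.8e-11) at D3, 3.05 (SE 0.068, adjusted p = 9.1e-14) at D6 and 2.39 (SE 0.049, adjusted p = 4.3e-13) at D9, each against the stage before. ESC stood 1.16-fold below D9, under the 2-fold minimum (log2 -0.22, SE 0.044, adjusted p = 5.7e-04). From D3 on, at least 99.7% of its reads in each group were assigned to 1 transcript of 4430 bases.

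Cdh2 (N-cadherin), which serves neural and mesenchymal cells, fell at every step to D9. Its libraries held 137 and 136 CPM in MEF, 43.1 and 46.2 at D3, 12.7 and 13.2 at D6, 4.08 and 4.77 at D9, and 29.7 and 30.0 in ESC. MEF was highest and D9 lowest, with ESC between D3 and D6. The steps were -1.62 (SE 0.048), -1.79 (SE 0.060) and -1.53 (SE 0.086) on the log2 scale, and ESC exceeded D9 by 2.74 (SE 0.075, adjusted p = 3.4e-13).

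Cdh3 (P-cadherin), found in placenta and in basal layers of epithelia, fell at once. It went from 221 and 217 CPM in MEF to 0.619 and 0.769 at D3, 0.500 and 0.514 at D6, 3.25 and 3.26 at D9, and 30.6 and 33.3 in ESC. D3 and D6 libraries were the lowest, at 17 to 26 reads each, and did not overlap the others. The fall at D3 was 316-fold (log2 -8.30, SE 0.083, adjusted p = 1.1e-17), and rises followed at D9 (2.67, SE 0.18) and in ESC against D9 (3.30, SE 0.076). Cdh3 and Cdh1 are neighbours on chromosome 8 in GRCm38, with 46053 bases between the end of Cdh3 at 106557297 and the start of Cdh1 at 106603351, both on the plus strand. At D3 the upstream gene had fallen and the downstream gene had risen.

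Cdh11 (OB-cadherin) is typical of mesenchyme and bone-forming cells and was the most abundant member in MEF by TPM. Its values were 1478 and 1487 CPM in MEF, 165 and 169 at D3, 2.71 and 3.36 at D6, 1.86 and 1.92 at D9, and 84.6 and 91.7 in ESC. No pair of stages overlapped. It fell 8.87-fold at D3 (log2 -3.15, SE 0.042) and a further 55.2-fold at D6 (log2 -5.79, SE 0.069, adjusted p = 2.3e-16), was not called at D9 against D6 (log2 -0.67, SE 0.15), and was 46.5-fold higher in ESC than at D9 (log2 5.54, SE 0.078, adjusted p = 3.7e-16).

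Cdh13 (T-cadherin), which is held to the membrane by a lipid anchor and lacks the catenin-binding tail, was highest at D3. It measured 34.6 and 34.5 CPM in MEF, 149 and 151 at D3, 52.5 and 52.2 at D6, 47.8 and 51.7 at D9, and 2.95 and 2.70 in ESC. It rose at D3 by 2.12 (SE 0.046, adjusted p = 2.5e-14), fell at D6 by 1.52 on the log2 scale (SE 0.043), and was 17.7-fold lower in ESC than at D9 (log2 -4.14, SE 0.072, adjusted p = 2.8e-15). D6 and D9 libraries lay close together, and their difference was not called (log2 -0.07, SE 0.046).

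Cdh26, an atypical cadherin, followed a similar course at a lower level. Its values were 2.29 and 2.77 CPM in MEF, 28.6 and 26.1 at D3, 4.97 and 4.27 at D6, 2.41 and 2.48 at D9, and 0.383 and 0.240 in ESC. Only the MEF and D9 ranges overlapped. It rose 10.7-fold at D3 (log2 3.42, SE 0.13, adjusted p = 1.4e-11), fell 5.92-fold at D6 (log2 -2.57, SE 0.12), and was lower in ESC than at D9 (log2 -2.97, SE 0.24). Cdh24 changed less: 11.8 and 10.6 CPM in MEF, 3.82 and 4.29 at D3, 6.53 and 7.41 at D6, 7.91 and 6.84 at D9, and 7.07 and 6.12 in ESC. It fell at D3 (log2 -1.47, SE 0.13, adjusted p = 1.8e-07), and no later step was called.

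Fat1, a giant cadherin that acts on actin and on Hippo signalling, was not called at any step to D9. It held 649 and 620 CPM in MEF, 708 and 774 at D3, 526 and 497 at D6, 434 and 438 at D9, and 251 and 242 in ESC. D3 libraries were highest and ESC lowest, without overlap between neighbouring stages. The changes were 0.23 (SE 0.043), -0.53 (SE 0.044), -0.23 (SE 0.044) and -0.82 (SE 0.045) on the log2 scale in stage order, all with an adjusted p under the threshold and all under 2-fold. ESC against MEF passed both thresholds (log2 -1.36, SE 0.045, adjusted p = 1.3e-12). With an offset for transcript length, ESC against D9 also did (log2 -1.04).

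Fat4 and its partner Dchs1, which bind each other on neighbouring cells, were both highest in MEF. Fat4 measured 160 and 162 CPM in MEF, 7.46 and 7.39 at D3, 0.382 and 0.333 at D6, 0.354 and 0.303 at D9, and 4.77 and 5.29 in ESC. D6 and D9 overlapped at 11 to 13 reads per library, and all other stages stood apart. It fell by 4.43 on the log2 scale at D3 (SE 0.055, adjusted p = 9.2e-17) and by 4.36 at D6 (SE 0.15), and was higher in ESC than at D9 by 3.94 (SE 0.16). Dchs1 went from 62.4 and 60.9 CPM in MEF to 23.0 and 24.3 at D3, 14.9 and 15.6 at D6, 5.92 and 6.54 at D9, and 2.77 and 2.83 in ESC. Each stage was below the one before, and Dchs1 was 1 of the 4 members that only fell to D9 and were lower again in ESC (log2 -1.16, SE 0.10, adjusted p = 1.5e-07). That last difference was not called with limma on log2(TPM + 1) (-0.14) or log2(TPM + 0.1) (-0.56).

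The 3 Celsr genes, which hold planar polarity complexes at cell borders, moved apart. Celsr1 measured 1.52 and 1.62 CPM in MEF, 2.64 and 3.10 at D3, 32.4 and 27.7 at D6, 51.8 and 51.5 at D9, and 28.4 and 30.2 in ESC. It rose 10.5-fold at D6 (log2 3.39, SE 0.10, adjusted p = 2.1e-12), and D6 and ESC overlapped below D9. Celsr2 rose earlier, from 2.70 and 2.81 CPM in MEF to 29.5 and 27.7 at D3 and 65.6 and 68.2 at D6, with 58.4 and 61.3 at D9 and 10.2 and 11.6 in ESC. Its log2 fold change was 3.38 (SE 0.094, adjusted p = 3.9e-13) at D3 and 1.23 (SE 0.057) at D6, and it was 5.48-fold lower in ESC than at D9 (log2 -2.46, SE 0.065, adjusted p = 2.4e-13). Celsr3 was highest in ESC: 1.40 and 1.13 CPM in MEF, 0.108 and 0.148 at D3, 0.118 and 0.182 at D6, 1.16 and 1.19 at D9, and 13.9 and 12.2 in ESC. It fell at D3 (log2 -3.27, SE 0.34) to 4 and 5 reads, then rose at D9 (2.95, SE 0.33) and again in ESC (3.48, SE 0.19, adjusted p = 8.1e-10). The D9 rise was not called with limma on log2(TPM + 1) (0.087) or log2(TPM + 0.1) (0.58), nor the D3 fall on the former (-0.15), and with a length offset Celsr3 was called higher at D6 than at D3 (2.44). Against MEF, ESC was higher for 3 of the 3 Celsr genes and D9 for 2 of 3, against 25.5% and 24.1% of all tested genes.

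Of the protocadherins outside the clusters, Pcdh18, Pcdh19, Pcdh7 and Pcdh9 were abundant in MEF and fell. Pcdh18, a delta protocadherin of mesenchyme, measured 181 and 185 CPM in MEF, 21.9 and 22.0 at D3, 7.29 and 7.83 at D6, 3.66 and 4.65 at D9, and 6.81 and 6.76 in ESC. Pcdh19, an X-linked delta protocadherin whose mutations cause epilepsy, held 155 and 153 CPM in MEF, 39.7 and 42.0 at D3, 5.62 and 3.54 at D6, 3.54 and 3.94 at D9, and 15.6 and 13.1 in ESC. For both genes MEF was far above the rest and D3 next. Pcdh18 fell by 3.06 (SE 0.055, adjusted p = 3.1e-15) and 1.54 (SE 0.075) on the log2 scale at D3 and D6, and Pcdh19 fell by 1.91 (SE 0.081, adjusted p = 4.4e-11) and 3.15 (SE 0.12). ESC was higher than D9 for Pcdh19 (log2 1.93, SE 0.15, adjusted p = 2.7e-08) and not called for Pcdh18 (log2 0.69, SE 0.10). Pcdh19 and Pcdh11x, the 2 members on the X chromosome, were both lower at D3, where Xist averaged 1010 CPM against 0.766 in MEF. Both were higher in ESC than at D9, where Xist averaged 10.2 against 1080 CPM. The part of X inactivation and donor in these differences was not tested.

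Pcdh7, another delta protocadherin, held 94.4 and 94.7 CPM in MEF, 61.9 and 63.0 at D3, 15.5 and 16.8 at D6, 4.73 and 4.95 at D9, and 12.3 and 13.7 in ESC. It kept most of its level at D3, where the change was under 2-fold (log2 -0.60, SE 0.048), and fell at D6 (log2 -1.95, SE 0.057, adjusted p = 1.3e-12) and D9 (log2 -1.73, SE 0.081). Pcdh9 fell at D3, from 26.5 and 28.4 CPM to 1.19 and 1.54, and stood at 0.735 and 0.514 at D6, 0.193 and 0.126 at D9, and 2.18 and 1.90 in ESC. Its D3 fall was 20.2-fold (log2 -4.34, SE 0.16, adjusted p = 8.0e-12). The later fall at D6 (log2 -1.11, SE 0.24) was lost with a length offset (-0.62) and without D3 replicate 2 (-0.92) or D6 replicate 2 (-0.88). Pcdh1, an epithelial protocadherin, went the other way: 7.09 and 7.26 CPM in MEF, 6.62 and 7.12 at D3, 19.3 and 18.6 at D6, 21.9 and 23.4 at D9, and 8.19 and 8.31 in ESC. D6 and D9 stood above the other groups, with a rise at D6 (log2 1.47, SE 0.078, adjusted p = 9.7e-10) and lower values in ESC than at D9 (log2 -1.46, SE 0.075). With a length offset the rise at D6 (1.297) and the difference between ESC and D9 (-0.98) were not called. Nor were they with limma on log2(TPM + 1) (1.06 and -0.67) or log2(TPM + 0.1) (1.47 and -0.80).

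The promoter sequences of 4 members named above are printed because 3 of them fell together from MEF (Fat4, Pcdh18 and Pcdh19) and 1 rose (Celsr2). They come from RefSeq on build GRCm38.p6 and cover the 250 bases before each gene's start: chr3:38886690-38886939 (plus strand) for Fat4, chr3:49757317-49757566 (minus strand) for Pcdh18, chrX:133688994-133689243 (minus strand) for Pcdh19 and chr3:108415580-108415829 (minus strand) for Celsr2. Promoter entries were found for 29 of the members' symbols. Capitals mark matches, on either strand, to CACCTG, the E-box that Snail and Zeb repressors bind, and to GGGNGNGGC, a GC-rich pattern of the kind bound by Klf4. The reverse complement of the first reads CAGGTG.
Fat4: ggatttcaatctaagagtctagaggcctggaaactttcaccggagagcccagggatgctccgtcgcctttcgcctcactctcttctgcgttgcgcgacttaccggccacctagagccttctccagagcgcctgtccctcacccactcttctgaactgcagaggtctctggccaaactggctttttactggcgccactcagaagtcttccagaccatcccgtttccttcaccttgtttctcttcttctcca
Pcdh18: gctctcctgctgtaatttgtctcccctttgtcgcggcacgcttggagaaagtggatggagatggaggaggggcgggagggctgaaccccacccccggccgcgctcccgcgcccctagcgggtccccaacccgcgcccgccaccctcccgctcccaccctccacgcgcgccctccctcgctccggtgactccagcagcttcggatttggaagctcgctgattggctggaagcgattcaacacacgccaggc
Pcdh19: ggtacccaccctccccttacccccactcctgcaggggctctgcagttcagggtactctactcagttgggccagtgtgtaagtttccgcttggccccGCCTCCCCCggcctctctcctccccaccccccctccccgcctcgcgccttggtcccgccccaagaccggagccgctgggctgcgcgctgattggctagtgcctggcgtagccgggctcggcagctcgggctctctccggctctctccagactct
Celsr2: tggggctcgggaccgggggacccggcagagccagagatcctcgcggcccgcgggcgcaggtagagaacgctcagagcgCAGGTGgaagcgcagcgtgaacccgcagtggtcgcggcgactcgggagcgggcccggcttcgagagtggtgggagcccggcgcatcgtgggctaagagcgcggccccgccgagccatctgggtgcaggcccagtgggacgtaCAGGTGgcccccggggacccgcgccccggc
Celsr2 had 2 E-box matches, both as the reverse complement, and none of the other pattern. Pcdh19 had 1 match to the GC-rich pattern, also as the reverse complement, and Fat4 and Pcdh18 had none to either. Of 32851 RefSeq promoters of the same length, 17.2% held CACCTG and 23.3% held GGGNGNGGC. The number of CG dinucleotides was 11 in Fat4, 23 in Pcdh18, 16 in Pcdh19 and 32 in Celsr2, with a median of 6 over all promoters. The matches describe these letters and do not show binding.

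The remaining 26 members outside the clusters averaged under 10 CPM in every group, the highest being Cdh10 in MEF at 9.91 CPM, and 20 of them were tested. Cdh5 (VE-cadherin), the adhesion molecule of blood vessel walls, was highest at D3 and D6. It stood at 0.185 and 0.0915 CPM in MEF (5 and 3 reads), 8.45 and 6.62 at D3, 9.38 and 9.41 at D6, 3.57 and 3.21 at D9, and 0.147 and 0.0534 in ESC. The induced libraries did not overlap the MEF or ESC libraries. Cdh5 rose at D3 (adjusted p = 5.6e-10), fell at D9 (log2 -1.47, SE 0.18) and was lower in ESC than at D9 (adjusted p = 7.9e-09). Folds against MEF and ESC are not given, since those libraries held 2 to 5 reads. Of 9 endothelial markers, 2 were higher and 2 lower at D3 than in MEF, 4 were higher and 1 lower at D6 than at D3, and 7 were higher and 2 lower at D9 than in MEF. In ESC against D9, 5 were higher (Pecam1, Tie1, Emcn, Erg and Vwf) and 3 lower (Kdr, Tek and Esam). The sum of the 9 markers went from 12.5 CPM in MEF to 126 at D3, 129 at D6, 88.1 at D9 and 122 in ESC. Tek supplied most of this in the induced groups, with 2.33, 121, 109, 68.3 and 7.29 CPM by stage. Kdr averaged 2.13, 1.80, 11.3, 4.68 and 0.822 CPM and Esam 0.444, 0.488, 4.76, 6.96 and 1.11 CPM, whereas Cldn5, Erg and Pecam1 stayed at or under 1.57 CPM from D3 to D9, while Emcn averaged at most 0.043 CPM there. The part of endothelial cells in the Cdh5 values was not tested.

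Cdh20 was highest at D3 and Pcdh17 at D6. Cdh20 averaged 0.0827 CPM in MEF, 1.86 at D3, 0.462 at D6, 0.338 at D9 and 0.355 in ESC, and Pcdh17 averaged 1.07, 2.25, 7.53, 5.94 and 0.167 CPM. Pcdh17 rose at D3 (log2 1.06, SE 0.23) and D6 (1.75, SE 0.19) and was lower in ESC than at D9 (-5.12, SE 0.28, adjusted p = 9.1e-10). Cdh4 (R-cadherin) averaged 1.47 CPM in MEF, 0.0699 at D3, 1.48 at D6, 4.68 at D9 and 2.39 in ESC. It fell at D3 and then rose at both later steps to D9 (log2 4.32, SE 0.43, and 1.66, SE 0.25). A single read is worth 0.0269 or 0.0296 CPM in the D3 libraries, so the size of the D6 rise rests on few reads. Fat2, a Fat cadherin known from the cerebellum and skin, was near 0 until ESC, with 0 to 2 reads per library to D6, 7 and 12 reads at D9 and 214 and 253 reads in ESC (6.31 and 6.76 CPM). Among 8 skeletal muscle markers, 6 were tested, 5 were lower and 1, Pax7, higher at D3 than in MEF. The muscle cadherin Cdh15 was also lower at D3, from 1.69 to 0.0847 CPM.

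Among the other low members, Fat3, Pcdh10, Pcdh11x and Cdh10 were highest in MEF. Fat3 averaged 5.10 CPM in MEF, 0.329 at D3, 0.388 at D6, 0.0769 at D9 and 0.575 in ESC, and Pcdh10 averaged 5.56, 0.281, 0.252, 0.0827 and 0.406 CPM. Pcdh11x went from 8.71 CPM in MEF to 1.52 at D3, 0.716 at D6 and 0.118 at D9, a fall at each step, and was at 0.421 CPM in ESC. Cdh10 averaged 2.83 CPM at D3 and 3.41 in ESC, where it was higher than at D9 (log2 1.70, SE 0.28, adjusted p = 7.8e-05). Cdh6, known from kidney, was 6.12 CPM at D3 and fell at D6 (log2 -1.99) and D9 (-1.62). Cdh23, the tip-link cadherin of hair cells, fell at D3 (log2 -1.52) and rose at D6 (2.78) to 2.45 CPM. Dchs2, Cdh8, Cdh15, Cdh17, Cdh18, Cdh19, Pcdh15, Pcdh20 and Pcdh8 averaged at most 2.09 CPM in any group, and Cdh12, Cdh16, Cdh22, Cdh7, Cdh9 and Pcdh12 were not tested.

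Counting of the clustered protocadherins rests on how reads in shared exons were divided. In GENCODE M21 on GRCm38, 14 of 15 alpha genes end within 5 bases of chr18:37187657 and 21 of 21 gamma genes end within 5 bases of 37841873, whereas the 22 beta genes have 22 different ends. Most alpha and all gamma genes thus join their own first exon to last exons shared within the cluster. The exception, a second Pcdha4 entry (ENSMUSG00000103458), runs on to 37840200 in the gamma region and had 0 reads over all libraries. The sums over each cluster do not depend on the division of reads among its own genes and were tested as single entries.

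**Figure D3:**
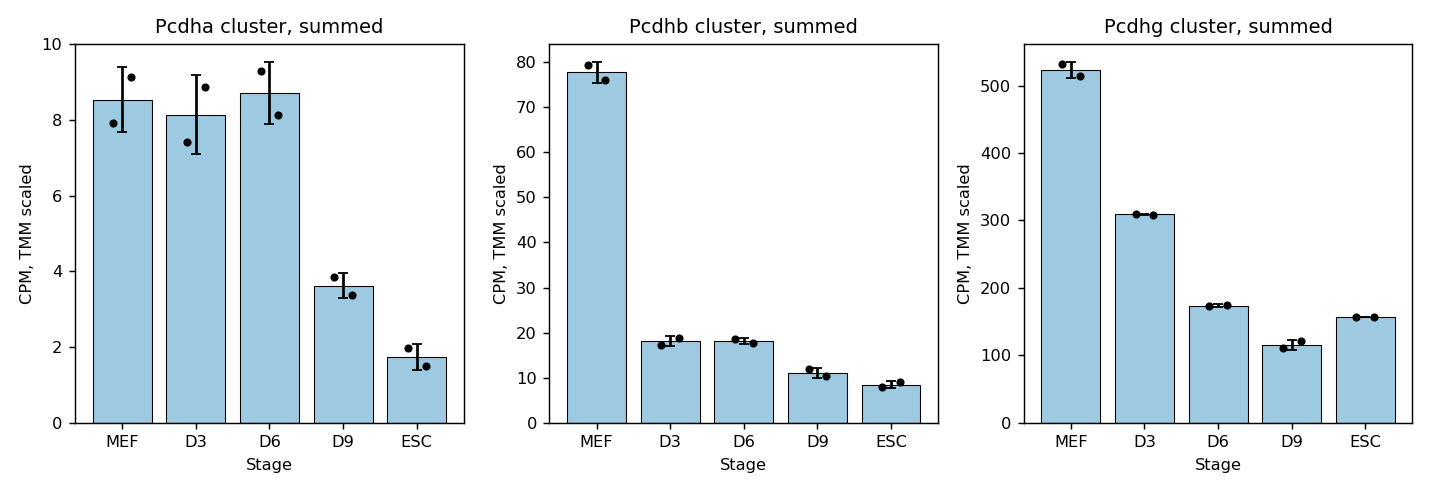
Summed CPM of the alpha, beta and gamma protocadherin clusters at each stage, with bars for group means, error bars for the SD of 2 libraries and points for libraries. Beta falls from 77.7 CPM in MEF to 18.1 at D3, gamma falls in smaller steps to 116 at D9, and alpha is at 8.71 CPM at D6 before it drops to 3.62 at D9.

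The beta cluster lost most of its RNA by D3. Its sum was 79.4 and 76.1 CPM in MEF, 17.3 and 18.9 at D3, 18.7 and 17.8 at D6, 11.9 and 10.3 at D9, and 7.86 and 8.97 in ESC. MEF stood far above all other libraries, and D3 and D6 overlapped. The fall at D3 was 4.30-fold (log2 -2.11, SE 0.069), and later steps were under 2-fold, at 0.01 (SE 0.078), -0.73 (SE 0.084) and -0.39 (SE 0.093). Of 20 beta genes tested, 19 were lower at D3 than in MEF, and 20 of 20 were lower at D9 and in ESC. Among all tested genes 14.5% were lower at D3, 19.8% at D9 and 20.6% in ESC, each against MEF. The number at or above 1 CPM went from 15 in MEF to 5 at D3, 6 at D6, 4 at D9 and 2 in ESC.

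Within the beta cluster, Pcdhb17 led in MEF and Pcdhb22 thereafter. Pcdhb17 held 16.4 and 14.9 CPM in MEF, 2.61 and 2.19 at D3, 1.18 and 1.57 at D6, 0.643 and 1.06 at D9, and 1.06 and 1.58 in ESC. Pcdhb22 held 12.9 and 13.4 CPM in MEF, 6.06 and 6.30 at D3, 6.35 and 5.54 at D6, 3.60 and 3.31 at D9, and 2.59 and 2.94 in ESC. Pcdhb17 fell at D3 by 2.70 on the log2 scale (SE 0.21, adjusted p = 3.5e-08) and Pcdhb22 by 1.09 (SE 0.12, adjusted p = 1.2e-06), the latter under 2-fold when scaled by library size without TMM (-0.88). The share of the cluster held by Pcdhb22 was 16.9% in MEF and 31.2% to 34.3% in the other groups. Pcdhb19 went from 8.02 and 7.16 CPM in MEF to 1.67 and 1.42 at D3, 2.18 and 2.54 at D6, 1.51 and 1.16 at D9, and 0.825 and 0.668 in ESC, and its only called step was the fall at D3 (log2 -2.29, SE 0.21).

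The gamma cluster was the most abundant and fell gradually. Its sum was 531 and 514 CPM in MEF, 310 and 309 at D3, 173 and 175 at D6, 110 and 121 at D9, and 157 and 157 in ESC. Stages did not overlap, and ESC lay between D6 and D9. Each step was under 2-fold, at -0.76 (SE 0.038), -0.83 (SE 0.039), -0.59 (SE 0.040) and 0.44 (SE 0.040) on the log2 scale, while the whole course to D9 gave -2.18 (SE 0.040) and ESC against MEF -1.74 (SE 0.039). By gene, 14 of 21 were lower at D3 than in MEF, and 21 of 21 at D9, against 14.5% and 19.8% of all tested genes. Every gamma gene exceeded 1 CPM in MEF and at D3, and 17 of 21 did so at D9.

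Pcdhgc3, a C-type gamma gene expressed outside the nervous system too, supplied the largest part of the gamma counts. On the length-corrected scale it was below the second Pcdhga8 entry described next in ESC, with 5.63 against 9.135 TPM. Its values in CPM were 218 and 210 CPM in MEF, 150 and 160 at D3, 94.5 and 94.6 at D6, 57.6 and 63.3 at D9, and 49.8 and 48.6 in ESC. It never fell 2-fold in a single step but did so from MEF to D9 (log2 -1.82, SE 0.047, adjusted p = 7.9e-14), and its share of the cluster was 41.0% in MEF, 50.2% to 54.4% in the induced groups and 31.4% in ESC. Pcdhgb6 held 29.7 and 30.8 CPM in MEF, 9.56 and 10.5 at D3, 6.73 and 7.29 at D6, 3.44 and 3.71 at D9, and 3.27 and 3.42 in ESC, and fell at D3 (log2 -1.60, SE 0.082). A second gene entered as Pcdhga8 (ENSMUSG00000023036, named Pcdhgc4 in GENCODE M21) measured 49.3 and 45.3 CPM in MEF, 62.2 and 34.8 at D3, 24.3 and 25.2 at D6, 18.7 and 20.6 at D9, and 39.6 and 37.5 in ESC. The D3 libraries lay on either side of MEF, and 86.0% to 98.2% of its reads by group came from a single transcript of 2272 bases. It was lower at D9 than in MEF (log2 -1.26, SE 0.19), a call lost when scaled by library size without TMM (-0.97), and its higher level in ESC than at D9 was just under 2-fold (log2 0.97, SE 0.19).

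In ESC 7 of 21 gamma genes were higher than at D9, and 1, Pcdhga6, was lower, against 18.6% and 14.3% of all tested genes. Pcdhgc5, another C-type gene, averaged 14.3 CPM in MEF, 3.47 at D3, 1.91 at D6, 1.63 at D9 and 10.3 in ESC, and the rise in ESC was 6.25-fold (log2 2.65, SE 0.15, adjusted p = 1.1e-09). The second Pcdhga8 entry held 9.07% of the cluster in MEF and 24.6% in ESC.

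The alpha cluster was low throughout, and 13 of its 15 genes stayed under 1 CPM in all libraries. Its sum was 7.92 and 9.13 CPM in MEF, 7.40 and 8.87 at D3, 9.29 and 8.13 at D6, 3.85 and 3.38 at D9, and 1.97 and 1.495 in ESC. The first 3 stages overlapped, and D9 and ESC stood below them. The sum fell at D9 (log2 -1.27, SE 0.15, adjusted p = 1.6e-05) and was lower again in ESC (-1.06, SE 0.19, adjusted p = 1.5e-04). The D9 call was lost with a length offset (-0.92), and the ESC call with DESeq2 (-0.996), without D9 replicate 1 (-0.97) and without ESC replicate 2 (-0.87). Pcdhac2, the C-type gene at the end of the cluster, held 5.28 and 6.25 CPM in MEF, 6.84 and 8.13 at D3, 7.23 and 6.02 at D6, 2.48 and 1.77 at D9, and 0.854 and 0.534 in ESC. It made up 92.3% of the cluster at D3 and 39.4% in ESC, and fell at D9 (log2 -1.66, SE 0.21, adjusted p = 2.3e-05). Pcdha12 and Pcdha5, next in level, averaged at most 0.921 and 0.742 CPM, with 0 to 40 reads per library. The Pcdha12 fall at D3 and rise at D6 and the Pcdha5 rise at D6 were each lost without at least 3 of the 4 libraries concerned, left out in turn.

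**Figure D4:**
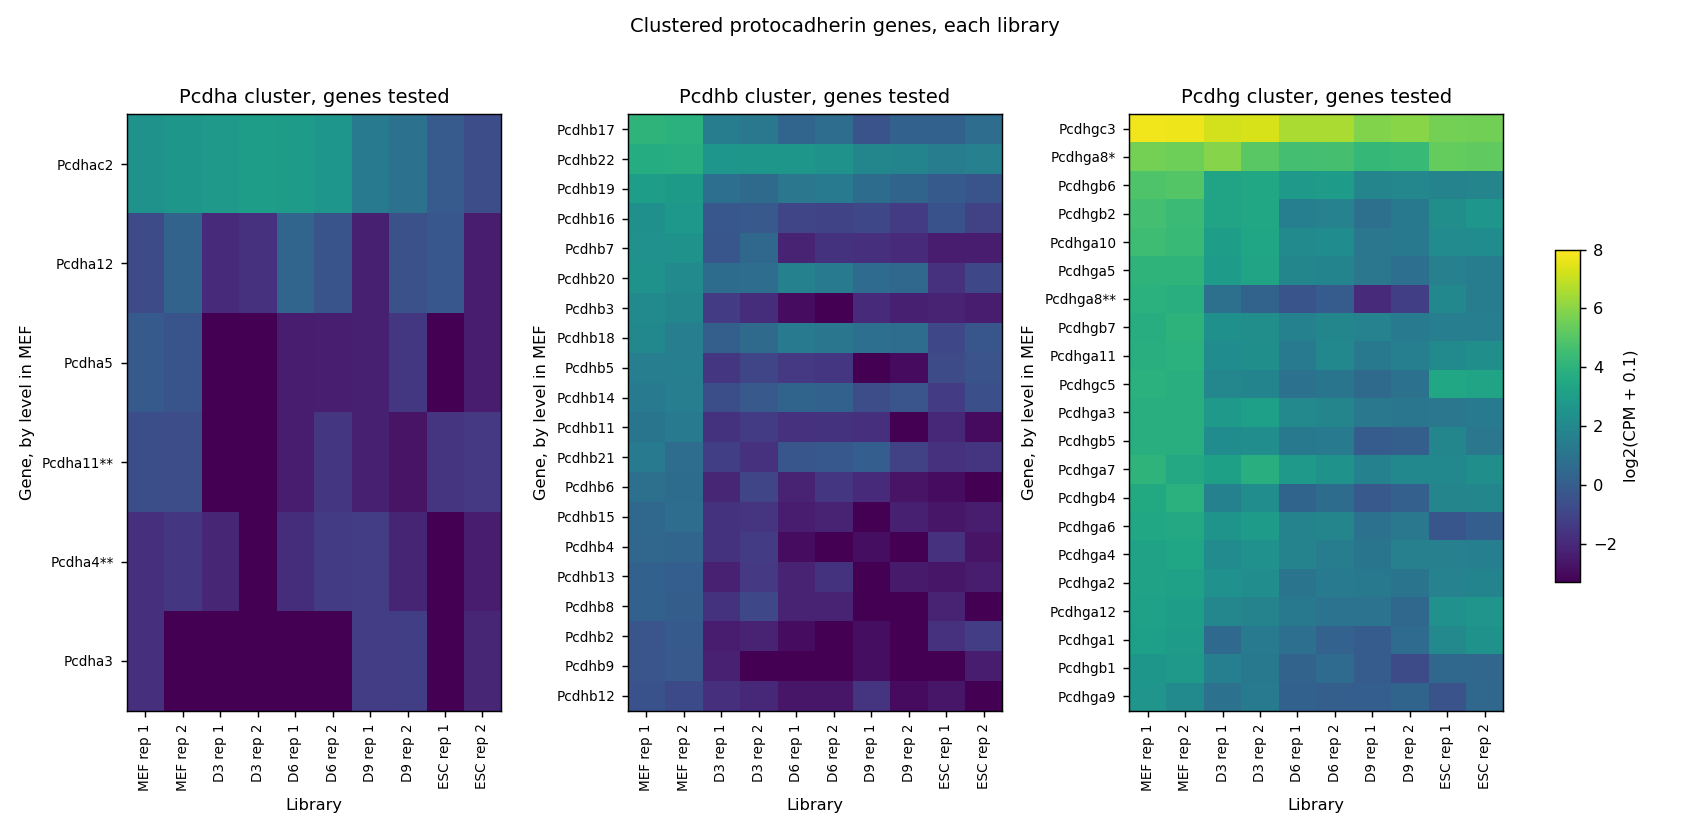
Level of each tested clustered protocadherin gene in each library as log2(CPM + 0.1), with genes ordered by their MEF level; 1 asterisk marks ENSMUSG00000023036 and 2 asterisks mark other symbols that belong to more than 1 gene. Of the 20 beta genes tested 19 are lower at D3 than in MEF (14.5% of all tested genes are), and Pcdhgc3 is the highest gamma gene in every library.

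ESC libraries came from cells grown on irradiated feeders, and fibroblast markers were present in them. Of 13 fibroblast markers, 12 were higher in ESC than at D9. Their summed level in ESC was 8.96% of that in MEF, with 1.11% (Lum) to 14.0% (Thy1) for single markers, whereas at D9 it was 0.210%. Of the members with at least 10 CPM in MEF, 12 were lower at D9 than in MEF and higher in ESC than at D9. Their ESC levels were 5.95% of MEF for Cdh11, 21.9% for Cdh2, 14.6% for Cdh3, 3.13% for Fat4, 9.36% for Pcdh19, 13.7% for Pcdh7 and 7.42% for Pcdh9. Among gamma genes they were 72.0% for Pcdhgc5, 26.4% for Pcdhgb4, 23.9% for Pcdhgb2, 21.9% for the Pcdhga8 entry ENSMUSG00000103897 and 20.7% for Pcdhgb5. Cdh2, Cdh3 and these gamma genes, 7 in all, lay above the range of the single markers and 5 within it. The cluster sums in ESC were 20.3% of MEF for alpha, 10.8% for beta and 30.0% for gamma. The part of feeder RNA in these ESC values was not tested.

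**Figure D5:**
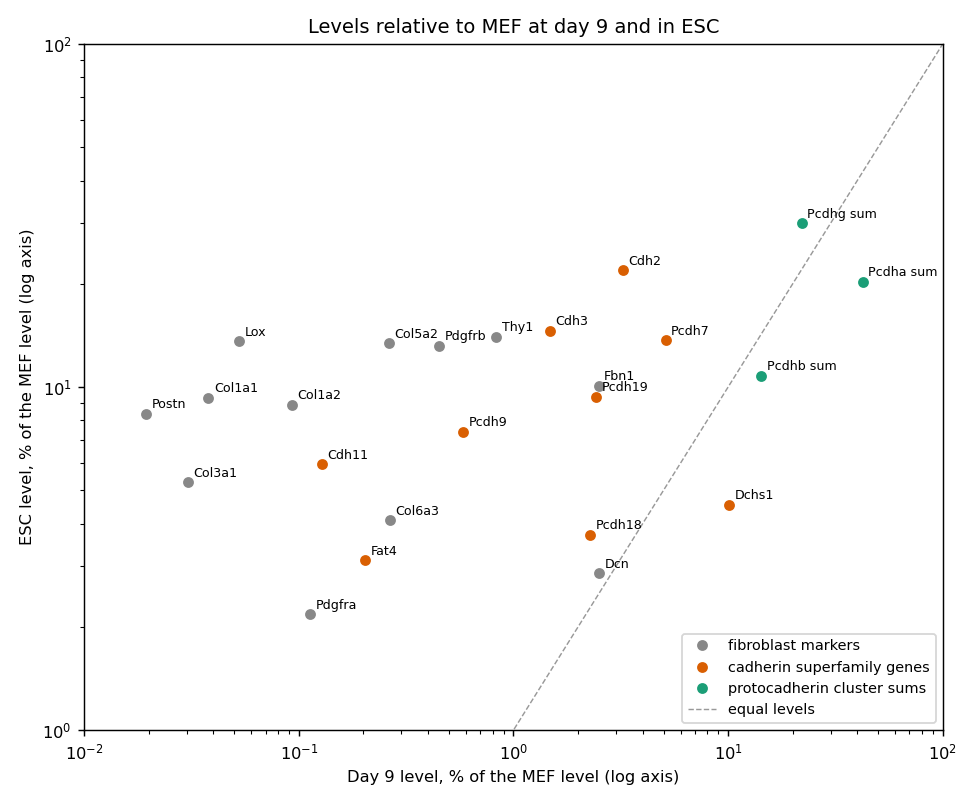
Level at D9 (horizontal axis) and in ESC (vertical axis) as a percentage of the MEF level, both on log axes. Points are fibroblast markers, members outside the clusters that averaged at least 10 CPM in MEF and were lower at D9, and cluster sums. Single genes of the clusters are not drawn, nor is Lum, listed at 0 at D9. Cdh11 and Fat4 lie among the fibroblast markers, and Dchs1 and the alpha and beta sums are among the points under the line of equal levels.

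Genes that work with cadherins were followed as lists. Beside these counts and those of the marker lists above stand the shares of all tested genes. Those shares were 14.6% higher and 14.5% lower at D3 against MEF, and 9.26% and 10.2% at D6 against D3. They were 5.18% and 2.68% at D9 against D6, 18.6% and 14.3% in ESC against D9, and 24.1% and 19.8% at D9 against MEF. Of 16 catenins and adherens junction partners, 15 were tested. At D3, 6 of them were higher than in MEF and 3 lower (median log2 0.27). Jup (plakoglobin) went from 166 CPM in MEF to 416 at D3 and was at 339 at D9 and 113 in ESC. Vcl (vinculin) fell at D6 (log2 -1.62), from 657 to 214 CPM. The core partners Ctnna1 and Ctnnb1 were not called in any of the 6 comparisons, with group means of 442 to 651 and 677 to 987 CPM. Ctnna2, the neural alpha-catenin, fell at D3 and D6, from 14.3 CPM in MEF to 1.34 and 0.193.

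Desmosomal cadherins and plaque proteins, which anchor intermediate filaments at cell contacts, were largely higher at D9. Of 14 genes 7 were tested, and 6 of these were higher at D9 than in MEF, among them Dsp (3.29 to 250 CPM), Perp (2.29 to 232 CPM), Dsg2 (1.64 to 53.4 CPM) and Pkp1 (1.36 to 46.9 CPM). In ESC against D9, 5 of 7 were lower and none higher, with Dsp at 26.6 and Perp at 19.8 CPM. Of 11 epithelial markers, 3 (Epcam, Cldn3 and St14) were higher and 4 (Krt18, Krt19, Cldn4 and Cldn7) lower at D3 than in MEF (median log2 -0.756). At D9, 10 of 11 were higher than in MEF, and 11 of 11 were lower in ESC than at D9. Cdh1 was not among the genes called between D9 and ESC.

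Known repressors of Cdh1 formed 1 list, and activators of Cdh1 together with other epithelial factors, such as Esrp1 and Esrp2, formed another. Of 9 repressors, 7 were lower at D9 than in MEF and 1, Snai3, higher (median log2 -5.78). Zeb2 went from 151 CPM in MEF to 20.3 at D3, 6.08 at D6 and 1.90 at D9, and Twist1 from 81.8 to 46.3, 7.86 and 1.47. At D3, when Cdh1 had first risen, Snai1, Snai2, Zeb2 and Twist2 were lower than in MEF, Snai3 was higher (0.0185 to 0.802 CPM) and Zeb1 was not called. In ESC, 6 of 9 were higher than at D9, while Cdh1 was not called. In MEF and ESC these 6 averaged 62.4 and 36.0 CPM for Zeb1, 151 and 16.9 for Zeb2, and 45.1 and 9.58 for Snai1. Snai2 averaged 60.9 and 8.03 CPM, Twist1 81.8 and 6.46, and Twist2 90.5 and 9.72. Zeb1 was the only 1 of them not called in ESC against MEF (log2 -0.795). Single fibroblast markers in the ESC libraries stood at 1.11% to 14.0% of their MEF level. The part of feeder RNA in the ESC values of the repressors was not tested. Of 10 activators and epithelial factors, 3 were higher and 1, Esrp2, lower at D3 than in MEF, 8 were higher at D6 than at D3 and 7 at D9 than at D6. In ESC 7 were lower than at D9 and 1, Klf5, higher. The 7 include Klf4, at 411 CPM at D9 and 182 in ESC, which the OKSM cassette also encodes. Cassette and endogenous Klf4 RNA were not told apart. Grhl2 averaged 0.0834 CPM at D3, 16.2 at D6 and 51.9 at D9, and Esrp1 0.112, 8.39 and 83.8.

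Planar polarity partners of the Fat, Dchs and Celsr proteins were counted in the same way. Of 16 tested, 1 was higher and 1 lower at D3, 2 higher and 1 lower at D6, and none was called at D9 against D6. In ESC against D9, 1 was higher and 4 lower, and at D9 against MEF 3 were higher and 3 lower. Against MEF, ESC gave 2 higher and 4 lower, where 25.5% and 20.6% of all tested genes were called. Prickle1, lower in all 3 of these comparisons, averaged 62.5 CPM in MEF, 27.2 at D9 and 4.06 in ESC. Vangl2 rose at D6 from 17.8 to 39.2 CPM, and Ankrd6 rose at D3 from 1.74 to 43.9 CPM. Among 8 enzymes that cleave cadherins or turn them over, Mmp14 fell from 898 CPM in MEF to 219 at D3 and 75.6 at D6, and Adam10, which cuts Cdh1 and Cdh2, fell at D6 from 169 to 80.9 CPM. Of 14 regulators of the clustered protocadherins, which include CTCF, cohesin and DNA methyltransferases, 2 were higher at D3 than in MEF and none lower. These were Dnmt1 (113 to 244 CPM) and Dnmt3b (3.23 to 10.6 CPM, and 140 CPM in ESC). Of all tested genes, 14.6% were called higher and 14.5% lower in the same comparison.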

How the data were processed

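Per the labels' protocols, total RNA was made into stranded poly(A) libraries and sequenced as single reads. The authors deposited 1 transcript table per library with estimated counts, which are not normalized, and TPM values. Per the submitters' processing notes, the tools include Salmon 0.8.2 and the build is mm10; the index and strand setting are not given in the sources used here. Estimated counts were summed per gene ID and rounded. Genes were kept with filterByExpr of edgeR (minimum count 10, minimum total 15), scaled with TMM, and fitted in edgeR 4.0.16 under R 4.3.3 by quasi-likelihood to all 10 libraries with a mean per group, with Benjamini-Hochberg adjustment over 20165 genes. For cluster sums the clustered genes were replaced by 3 rows. Symbols that belong to several gene IDs were kept apart. The common coefficient of variation was 3.75%, and replicate libraries differed by more than sampling noise (chi-square per degree of freedom 2.91 to 5.42). The pipeline was tested on simulated counts.

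The members and related lists were chosen with earlier results of these data known. Named with every library's value were members outside the clusters that averaged at least 10 CPM in any group, and the 3 highest genes and the sum of each cluster; related lists give up to 4 of their most abundant called genes, with others named where a count turns on them. Alternatives were DESeq2 1.42.0, other filters and scalings, a length offset, no minimum for the fold change, limma 3.58.1 on log2 TPM with pseudocounts of 1 or 0.1, a replicate block and leaving out each library. Figures used matplotlib 3.10.9.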

Additional observations from a re-analysis of the deposited data

How the results depend on the processing

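Counts of called members fell by more than 1.5 times with fewer or compressed values. Requiring 10 CPM in 2 libraries gave 4 higher and 22 lower at D3 against MEF, 4 and 14 at D6 against D3, 3 and 6 at D9 against D6, 15 and 6 in ESC against D9, 4 and 27 in ESC against MEF, and 4 and 26 at D9 against MEF, since fewer members were tested. In the same order limma on log2(TPM + 1) gave 3 and 10, 2 and 6, 1 and 0, 6 and 3, 4 and 18, and 3 and 23. With log2(TPM + 0.1) the moved counts were 5 and 13 at D6 against D3, 2 and 6 at D9 against D6, 5 lower in ESC against D9, 5 higher in ESC against MEF and 6 higher at D9 against MEF. Without a fold change minimum 43 were lower at D6 against D3 and 32 at D9 against D6, and with a length offset 4 were higher at D9 against D6. The cause of the limma and length differences was not tested.

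The alpha sum at D3 against MEF changed sign with library-size scaling (0.14). Its fall at D9 against D6 was not called with a length offset (-0.92), log2(TPM + 1) (-0.35) or log2(TPM + 0.1) (-0.86), that at D9 against MEF not with library-size scaling (-0.95) or limma (-0.39 and -0.94), that in ESC against D9 not with DESeq2 (-0.996) or limma (-0.23 and -0.79), and that in ESC against MEF not with log2(TPM + 1) (-0.62). The beta sum at D6 against D3, near 0, changed sign with DESeq2 (-0.015), only the 2 groups (-0.018), a length offset (-0.17) and limma (-0.10 and -0.15). Without a fold change minimum the beta sum was called at D9 against D6 (-0.73) and in ESC against D9 (-0.39), and the gamma sum at all 4 steps (-0.76, -0.83, -0.59 and 0.44).

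Leaving out each library gave 6 to 8 higher and 54 to 59 lower members at D3 against MEF, 9 to 11 and 24 to 29 at D6 against D3, 5 to 6 and 15 to 16 at D9 against D6, 25 to 28 and 12 to 15 in ESC against D9, 6 to 8 and 62 to 63 in ESC against MEF, and 9 to 10 and 63 to 65 at D9 against MEF. The alpha sum ranged from -0.21 to 0.053 at D3 against MEF, -0.026 to 0.24 at D6 against D3, and -1.27 to -0.87 in ESC against D9, and the beta sum from -0.051 to 0.078 at D6 against D3.

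Uncalled changes of single genes that reversed were Cdh24 at D9 against D6 (-0.003 and -0.006 with limma; -0.025 to 0.18 without 1 library), Cdh26 at D9 against MEF (0.23 with library size, 0.83 with length, 0.39 and 0.69 with limma, -0.18 to 0.095 without 1 library), Celsr3 at D6 against D3 (-0.11 to 0.50 without 1 library) and at D9 against MEF (0.19 with library size, -0.26 to 0.056 without 1 library), Pcdh1 at D3 against MEF (0.14 with library size) and in ESC against MEF (-0.12 with length, -0.008 and -0.005 with limma), and Pcdh19 at D9 against D6 (1.29 with length, 0.50 and 1.15 with limma, -0.58 to 0.087 without 1 library). In the clusters they were Pcdha12 in ESC against D9 (-2.15 to 2.01 without 1 library; a lone library is taken to vary like the other groups), Pcdhb22 at D6 against D3 (0.013 with library size, -0.16 to 0.040 without 1 library), the second Pcdhga8 entry at D3 against MEF (-0.091 with DESeq2, -0.040 with the 10 CPM filter, -0.022 with only the 2 groups, -0.44 to 0.40 without 1 library) and in ESC against MEF (0.046 with library size), and Pcdhgb6 in ESC against D9 (0.014 and 0.043 with limma). On log2(TPM + 1), which compresses low values, called steps that fell under 2-fold included Cdh1 at D3 (0.98), Cdh2 at D9 (-0.79), Cdh3 at D9 (0.38), Cdh24 and Dchs1 at D3 (-0.80 and -0.90), Celsr2, Fat4 and Pcdh18 at D6 (0.99, -0.27 and -0.78), Dchs1 and Pcdh7 at D9 (-0.53 and -0.79), and Fat4 and Pcdh7 in ESC against D9 (0.19 and 0.77).

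Equal replicate numbers gave no sign of pairing: over the 20165 tested genes, deviations of same-numbered libraries correlated at -0.0205 to 0.0222 over 10 pairs of groups. A correlation over all genes can miss pairing that touched few of them. With the replicate number as a block, 7 members were higher and 56 lower at D3 against MEF. The counts were 11 and 25 at D6 against D3, and 7 and 14 at D9 against D6. In ESC they were 26 and 12 against D9 and 7 and 63 against MEF, and at D9 against MEF 10 and 66. Several of these counts were below those of the main fit, so calls of members not named singly were lost as well. Of 192 results on named genes, cluster sums and counts of called members, 190 were rated unchanged, small shifts in a count being allowed. Among the named genes and cluster sums, only Pcdha12 at D3 against MEF and Pcdha5 at D6 against D3 lost their call.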
